A study of Drosophila melanogaster with 16 samples.

Results

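The cytosolic ribosomal protein genes were followed across age in sorted *Drosophila melanogaster* motor neurons (MNs). Members were all genes whose current FlyBase symbol starts with RpL or RpS and a digit, or is RpLP0, RpLP1 or RpLP2, as listed in a Release 6 reference table. The table holds 91 such genes, of which 88 were matched by accession to 182 features of the array (50 genes of the large subunit and 38 of the small subunit). The array as a whole carried 45366 features in 12972 named genes. RpL18, RpL10Ab and RpLP2 had no matched feature and were not analysed here. Of the 88 members, 29 had 1 feature, 39 had 2 and the remaining 20 had 3 to 8, with the most for RpL5.

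MNs labeled with GFP under the D42 driver were dissociated from the thoracic ganglion of female flies of the w1118 strain and collected by FACS. All flies carried the driver and GFP and aged at 25 °C, with no treatment, to 7 days (5 pools), 35 days (5 pools) or 45 days (6 pools) after eclosion. A pool held the sorted cells of 5 flies, its RNA was amplified and labeled with Cy3, and each pool had its own single-color Agilent array. Cells were selected only by the activity of the D42 driver, and pools of flies hide the differences between individuals.

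A ribosome is built from a small subunit, which decodes the mRNA, and a large subunit, which forms the peptide bond. Each subunit is a scaffold of ribosomal RNA that carries many small proteins, most of them present in a single copy, so their genes are usually expressed at matched and high levels in every cell type. Loss of 1 copy of many of these genes gives the Minute phenotype of *Drosophila*, with slow development and thin bristles. Neurons rely on ribosomes in the cell body and also in distant processes. A few fly ribosomal protein genes have paralogs, and several of the extra copies are known mainly from the ovary or testis.

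Between 56.7% and 67.1% of the spots of each array were well above background by the scanner software, and 0 spots were saturated. All 9 measured neuronal markers (elav, nSyb, brp, Syt1 and others) were above background on each of the 16 arrays, as were all 7 glial markers, 7 of 9 muscle markers and 4 of 6 fat body markers and 1 of 5 hemocyte markers. Of 6 germ line markers, grk was above background on 16 arrays, vas and aub on 10, piwi on 1, and bam and osk on 0. The summed signal of the muscle markers, as log2 relative to the 75th percentile, ranged between -0.45 and 2.70 at 7 days, 0.80 and 2.49 at 35 days and 1.91 and 3.73 at 45 days, while that of the neuronal markers lay between 4.19 and 4.83 on all arrays. The summed signal of the fat body markers ranged between 1.90 and 4.45, 3.03 and 4.56, and 3.59 and 5.12 at 7, 35 and 45 days, and that of the glial markers between 4.38 and 5.19, 4.19 and 4.92, and 3.71 and 4.63. The part of other cells in the values below was not tested. In bulk samples, fewer cells of a type and less RNA per cell cannot be told apart. All 7-day arrays lay in row 2 of their slide and all 35-day arrays in row 1, so that row and age cannot be told apart between these ages, whereas the 45-day arrays lay 3 in each row.

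Most ribosomal protein genes were detected on every array. A total of 153 of the 182 features (84.1%) were above background on every array, beside 43.8% of all features, and 82 of the 88 genes (93.2%) had at least 1 such feature, beside 53.3% of all genes. The large subunit contributed 48 of these 82 genes and the small subunit 34. For comparison, 64 of 66 mitochondrial ribosomal protein genes (97.0%) and 32 of 46 proteasome subunit genes (69.6%) had a feature above background on every array. Another 22 member features were above background on some arrays and 7 on none. Features named by a FlyBase transcript were above background on every array in 148 of 165 cases, and features with another name in 5 of 17.

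The 6 members with no feature above background on every array were RpS19b, RpL10Aa, RpL22-like, RpS28-like, RpS10a and RpS5b. Each is an extra copy in a gene family, and each had a single feature except RpS28-like, which had 2. RpS19b was above background on 0 arrays, RpL10Aa on 1, RpL22-like on 2 and RpS28-like on 3. RpS10a was above background on 4 of 5 arrays at 7 days, 2 of 5 at 35 days and 6 of 6 at 45 days. RpS5b was above background on 15 of 16 arrays. RpL22-like, RpS5b, RpS10a and RpS19b are known from the germ line of flies. Their partners RpS19a, RpL22, RpS28b, RpS28a, RpS10b and RpS5a were all above background on 16 arrays, and RpL10Ab, the partner of RpL10Aa, was not analysed here.

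**Figure D1:**
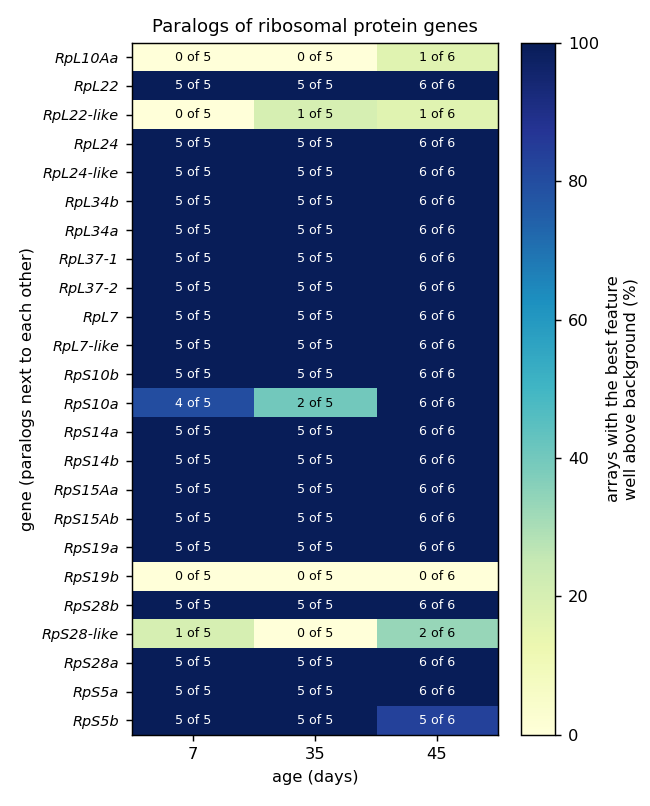
Detection of 24 ribosomal protein genes that belong to families with 2 or more members. Rows are genes, columns are the ages, and the color and the number in each cell give the share of arrays (5, 5 and 6) on which the best feature of the gene was well above background. 18 of the 24 genes were above background on all 16 arrays, and 6 extra copies were not.

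Values are given below as the log2 background-adjusted intensity minus the 75th percentile of the array (log2 signal), with the mean and SD over the arrays of an age. The level of 1 gene cannot be set against that of another on this scale, because probes differ in brightness. Over features above background on every array, RpS14a and RpS14b, which encode the same platform protein of the small subunit, averaged 4.40 ± 0.47 and 3.51 ± 0.56 at 7 days (SD, n = 5). RpS14b averaged 3.92 ± 0.31 at 35 days (n = 5) and 3.51 ± 0.34 at 45 days (n = 6), and RpS14a 4.38 ± 0.35 and 4.47 ± 0.24. Over the same kind of features, RpL34a and RpL34b, RpS15Aa and RpS15Ab, and RpL24 and RpL24-like had log2 changes between -0.15 and 0.33 in each pair of ages. Over all its features, 1 of which was dimmer, RpS15Aa had log2 changes of -0.45 at 35 against 7 days and 0.59 at 45 against 35 days (limma adjusted p = 0.28 and 0.53). RpL24-like and RpL7-like are homologs of the yeast ribosome assembly factors Rlp24 and Rlp7 rather than of proteins of the mature ribosome. Signal from near-identical paralogs may be shared by their probes, whose sequences were not used here.

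The first question was whether any member changed between ages. Over all features, 0 of the 88 genes passed the threshold between 35 and 7 days (limma, Benjamini-Hochberg adjusted p under 0.05 over all genes and more than 2-fold), where 0.1% of all genes passed. Between 45 and 7 days 0 of 88 passed, beside 0% of all genes, and between 45 and 35 days 0 of 88, beside 0.00771%. The F test over the 3 ages passed 0 of 88 members at an adjusted p under 0.05, beside 0.0694% of all genes, and 4 members had an unadjusted p under 0.05, beside 19% of all genes. At an unadjusted p under 0.05, 0 members were higher and 4 lower at 35 than at 7 days (2.68% and 22.2% of all genes), 0 higher and 1 lower at 45 than at 7 days (2.31% and 7.26%), and 2 higher and 1 lower at 45 than at 35 days (5.12% and 2%). The lowest adjusted p among members was 0.0954, 0.392 and 0.528 in the same order, and the methods' t-test (without moderation) also passed 0 members in each pair. Without replicate 4 of the 35-day arrays, 3 members (RpL10Aa, RpS19b and RpS28-like) passed as lower at 35 than at 7 days and RpS19b passed the F test, and in the same fits 1358 and 605 of all genes passed.

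The median log2 change of the 88 members was 0.02 at 35 against 7 days, 0.03 at 45 against 7 days and -0.01 at 45 against 35 days. The medians over all 12972 genes were -0.37, -0.23 and 0.14. Only 53.3% of all genes had a feature above background on every array, beside 93.2% of the members. These medians and the shares of all genes above thus include many genes without such a feature. Over features above background on every array the medians over all genes were 0.00, -0.06 and -0.07. The 4 members lower at 35 than at 7 days before adjustment were RpL10Aa, RpS28-like, RpS19b and RpL19. RpL10Aa and RpS19b were not well above background on any array of either age and RpS28-like on only 1 of these 10, so they have no measured fold. RpL19, a large subunit protein that also contacts the small subunit, had a log2 change of -0.76 ± 0.27 (SE, limma adjusted p = 0.12). This value averages 3 features with log2 changes of -0.04, 0.14 and -2.36, which were above background on 16, 5 and 1 of the 16 arrays.

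RpS28-like was the only member whose arrays did not overlap between 2 ages, at 35 against 7 days. Of all genes, 0.825% were higher and 4.71% lower without overlap at 35 against 7 days, 0.331% and 0.971% at 45 against 7 days, and 0.324% and 0.324% at 45 against 35 days. RpS28-like had log2 signals of -10.85, -11.14, -10.82, -9.92 and -10.33 at 35 days, against -9.84, -9.58, -9.75, -8.94 and -9.86 at 7 days (exact permutation p = 0.0079, two-sided, the smallest that 5 against 5 arrays can give). It was above background on 0 of 5 arrays at 35 days and on 1 of 5 at 7 days, so these values were mostly not well above background and no fold is given. At 45 days it was above background on 2 of 6 arrays.

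RpS10a, a paralog of the small subunit head protein RpS10b, varied widely from array to array. It had log2 signals of -4.14, -2.07, -4.46, -5.29 and -9.51 at 7 days. At 35 days the values were -10.76, -10.87, -4.12, -9.78 and -2.86. At 45 days they ranged between -6.14 and -0.45 with a median of -3.01. The 3 ages overlapped, although 3 of the 35-day arrays were near background and all 45-day arrays were above it. No pair of ages passed the threshold (limma adjusted p = 0.46 at 35 against 7 days, 0.60 at 45 against 7 days and 0.53 at 45 against 35 days). No fold is given, because the 35-day mean rests mostly on arrays that were not well above background.

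RpS5b, a paralog of the small subunit head protein RpS5a, had log2 signals of -4.04, -4.57, -3.17, -5.66 and -1.35 at 7 days and of -1.93, -4.81, -2.08, -4.06 and -2.58 at 35 days. At 45 days it ranged between -8.78 and -0.60 with a median of -3.51. All 3 ages overlapped and no difference passed the test. RpS5a averaged 4.37 ± 0.25, 4.38 ± 0.31 and 4.32 ± 0.22 at the same ages.

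Most of the large member changes rested on features near background. Between 35 and 7 days, 1 of the 153 member features that were above background on all 16 arrays differed more than 2-fold in its mean, but 12 of the other 29 did. Between 45 and 7 days the counts were 2 of 153 and 8 of 29, and between 45 and 35 days 0 of 153 and 10 of 29. The same split over all features is not given here, so it is not read as particular to the members. The changes of dim features are given as measured. RpL13A had 1 feature with a change of 0.07 at 45 against 7 days, above background on every array, and 1 with a change of -2.35, above background on 4 arrays. RpLP1, an acidic protein of the stalk that recruits translation factors, had features with 0.10 (16 arrays above background) and 2.39 (4 arrays). RpS27 had features with 0.34 (16 arrays) and -2.10 (2 arrays) at 35 against 7 days. RpL7, RpL3, RpS7 and RpS23 showed the same split between a feature or features above background on every array, with changes between -0.30 and 0.44 over both contrasts with 7 days, and dimmer ones with changes between -2.09 and 2.12. In the fit over single features, 0 of 182 passed in any pair of ages (0.101%, 0.373% and 0.0176% of all features at 35 against 7, 45 against 7 and 45 against 35 days), and 1 passed the F test (0.606% of all features), the dim RpL19 feature (adjusted p = 0.030, limma). At an unadjusted p under 0.05, 3 member features were higher and 16 lower at 35 than at 7 days, 2 higher and 3 lower at 45 than at 7 days, and 7 higher and 1 lower at 45 than at 35 days. The share of all features at this threshold is not given here, so these counts are not read as a trend of the members. Of all genes, a different unit from single features, 2.68% were higher and 22.2% lower at 35 than at 7 days at this threshold.

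**Figure D2:**
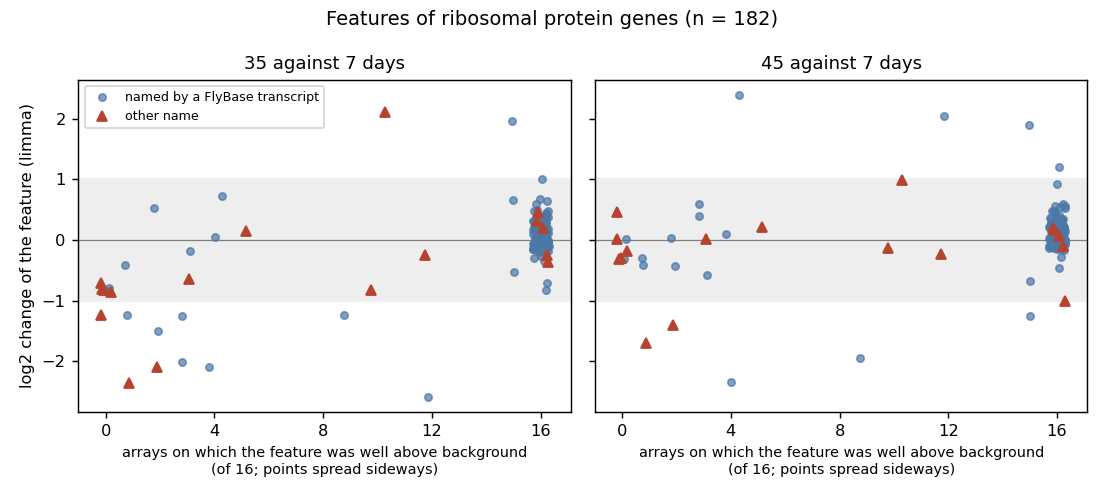
Log2 change of each of the 182 member features (limma) against the number of arrays, of 16, on which the feature was well above background, at 35 against 7 days (left) and 45 against 7 days (right). Circles are features named by a FlyBase transcript, triangles are features with another name, points are spread sideways, and the grey band marks changes within 2-fold. The 153 features above background on 16 arrays lie within the band except for 1 in the left panel and 2 in the right panel, beside 12 and 8 of the 29 others.

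The comparison was therefore repeated over features above background on every array, which left 82 members among 6909 genes. This filter removes any gene that is lost at 1 age, so its counts do not stand for all 88 members. Again 0 of 82 members passed in each pair of ages by limma and by the methods' t-test, beside 0.116% of all genes at 35 against 7 days, 0.116% at 45 against 7 days and 0.0434% at 45 against 35 days. The F test passed 0 of 82, beside 0.405%, and 1 member (RpL37-2) had an unadjusted p under 0.05, beside 14.1%. In the pairs, members with an unadjusted p under 0.05 were 3 higher and 0 lower at 35 than at 7 days (6.82% and 6.77% of all genes), 1 higher and 0 lower at 45 than at 7 days (4.69% and 7.21%), and 1 higher and 0 lower at 45 than at 35 days (3.69% and 4.65%). These shares lie near or below those of all genes. The groups of arrays overlapped for all 82 members in all 3 pairs, where 1.87% of all genes were higher and 2.01% lower without overlap at 35 against 7 days, 0.753% and 1.4% at 45 against 7 days, and 0.564% and 0.811% at 45 against 35 days.

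The changes of these members lay in a narrow range. Their median log2 change was 0.08 at 35 against 7 days, 0.04 at 45 against 7 days and -0.02 at 45 against 35 days, beside 0.00, -0.06 and -0.07 for all 6909 genes. The SD of the changes over members was 0.20, 0.20 and 0.13, beside 0.54, 0.54 and 0.51 over all genes. A change under 1.5-fold was measured for 80, 81 and 82 of the 82 members. The share of all genes for this count is not given here, so it is not read as particular to the members. The 95% interval of the change lay within 2-fold for 77 members at 35 against 7 days, 78 at 45 against 7 days and 80 at 45 against 35 days, which was the case for 55.9%, 55.8% and 54.3% of all genes. The exceptions were RpL37-1, RpL37-2, RpL38, RpS14b and RpS28a at 35 against 7 days, RpL37-1, RpL37-2, RpL7-like and RpS28a at 45 against 7 days, and RpL37-1 and RpL7-like at 45 against 35 days. At 7 days the log2 signal of these exceptions averaged between -2.54 (RpL37-2) and 3.51 (RpS14b), lower than that of most members. RpL26 (0.91) and RpL30 (1.66) also had a low signal but were not among them. The members were not compared with genes of like signal. The part of signal level in the SD and in the interval shares was thus not tested, and neither is read as particular to the members. An interval within 2-fold does not exclude smaller changes, and the median width of the interval on each side was 0.52, 0.47 and 0.45 on the log2 scale.

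**Figure D3:**
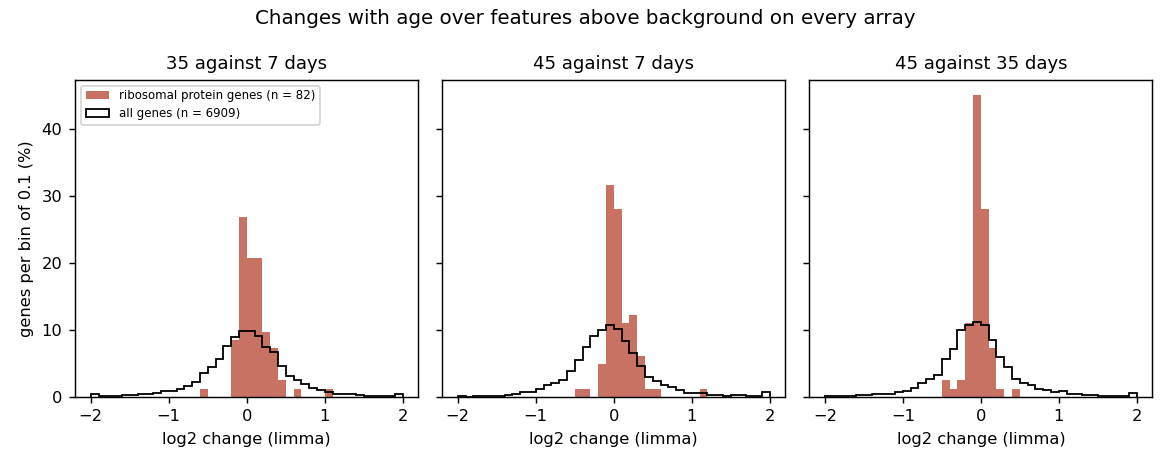
Distribution of log2 changes (limma) over features above background on every array, for 35 against 7 days, 45 against 7 days and 45 against 35 days. The filled histogram holds the 82 ribosomal protein genes and the outline all 6909 genes, as the percentage of genes in each bin of 0.1, with changes beyond 2 in either direction placed in the outermost bins. The SD of the changes was 0.20, 0.20 and 0.13 for the members and 0.54, 0.54 and 0.51 for all genes. Members and all genes were not matched for signal.

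Both subunits had median changes near 0. The median log2 change of the 48 large subunit genes was 0.10 at 35 against 7 days, 0.06 at 45 against 7 days and -0.02 at 45 against 35 days, and that of the 34 small subunit genes 0.03, 0.02 and -0.01. The 2 members made as fusions with ubiquitin, RpL40 and RpS27A, averaged 4.75 ± 0.40 and 5.21 ± 0.32 at 7 days, 4.80 ± 0.21 and 5.16 ± 0.44 at 35 days, and 4.85 ± 0.26 and 5.15 ± 0.28 at 45 days (SD, n = 5, 5 and 6). Their 95% intervals ran between -0.59 and 0.56 in all 3 pairs. The stalk protein RpLP0 averaged 3.40 ± 0.30, 3.31 ± 0.36 and 3.43 ± 0.51 at 7, 35 and 45 days, and RpLP1 4.87 ± 0.37, 5.01 ± 0.34 and 4.97 ± 0.21.

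RpL37-2, one of 2 genes for the large subunit protein L37, had the largest change of the 82 members against 7 days. Its log2 signal was -3.00, -3.22, -2.27, -2.70 and -1.53 at 7 days. At 35 days it was -1.78, -2.10, -1.52, -1.49 and -0.80. At 45 days it ranged between -1.83 and -0.40 with a median of -1.43. Replicate 5 of the 7-day arrays lay among the older arrays, and the other 4 lay below all of them. The log2 change was 1.01 ± 0.34 at 35 against 7 days (SE, 95% interval 0.25 to 1.76, exact permutation p = 0.032, two-sided, limma adjusted p = 0.24) and 1.20 ± 0.34 at 45 against 7 days (0.46 to 1.94, exact permutation p = 0.017, two-sided, limma adjusted p = 0.23), so that neither passed the threshold. The change at 45 against 7 days was 1.51 within slide 1 and 1.08 within slide 2, and 1.22 with slide row as a term over all 16 arrays. With each array centred on the ribosomal protein genes it was 1.12. These values come from 1 of the 2 RpL37-2 features, and the other was above background on 1 array.

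RpL37-1, the paralog on the X chromosome, had log2 signals of -0.10, 0.47, 1.07, -0.11 and 1.05 at 7 days and of 1.24, 1.19, 1.23, 1.21 and 0.74 at 35 days. At 45 days it ranged between -0.92 and 1.45 with a median of 0.93. Of the 35-day arrays 4 lay above all 7-day arrays, and the 45-day arrays spanned both. Its log2 change was 0.65 ± 0.27 at 35 against 7 days (exact permutation p = 0.056, two-sided, limma adjusted p = 0.33) and 0.20 ± 0.43 at 45 against 7 days. Within slides the first of these was 1.03 on slide 1 and 0.30 on slide 2.

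RpS15, whose tail reaches the decoding site, had log2 signals of 2.30, 2.55, 2.54, 2.28 and 3.20 at 7 days and of 3.11, 3.09, 3.22, 2.77 and 3.12 at 35 days. At 45 days it ranged between 2.33 and 3.27 with a median of 2.89. All 35-day arrays lay above 4 of the 5 arrays at 7 days, and 4 of them lay below replicate 5 of that age. The log2 change at 35 against 7 days was 0.49 ± 0.20 (exact permutation p = 0.040, two-sided, limma adjusted p = 0.33), with 0.71 within slide 1 and 0.27 within slide 2. Both RpS15 features were above background on every array.

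RpL38, which in the mouse affects the translation of Hox mRNAs, had log2 signals of 2.60, 2.35, 2.74, 1.35 and 2.24 at 7 days and of 1.62, 1.62, 2.01, 1.92 and 1.50 at 35 days. At 45 days it ranged between 1.94 and 2.40 with a median of 2.19. Only 1 of the 35-day arrays lay above the lowest 45-day array, and the 7-day arrays spanned both older ages. The log2 change was -0.52 ± 0.26 at 35 against 7 days (SE, 95% interval -1.10 to 0.06, exact permutation p = 0.079, two-sided, limma adjusted p = 0.42), with -0.72 within slide 1 and -0.40 within slide 2. It was 0.44 ± 0.17 at 45 against 35 days (exact permutation p = 0.017, two-sided, limma adjusted p = 0.52), with 0.62 within slide 1 and 0.28 within slide 2. Its 3 features, all above background on every array, disagreed, with changes of -0.03, -0.82 and -0.71 at 35 against 7 days and of -0.03, 0.75 and 0.61 at 45 against 35 days.

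**Figure D4:**
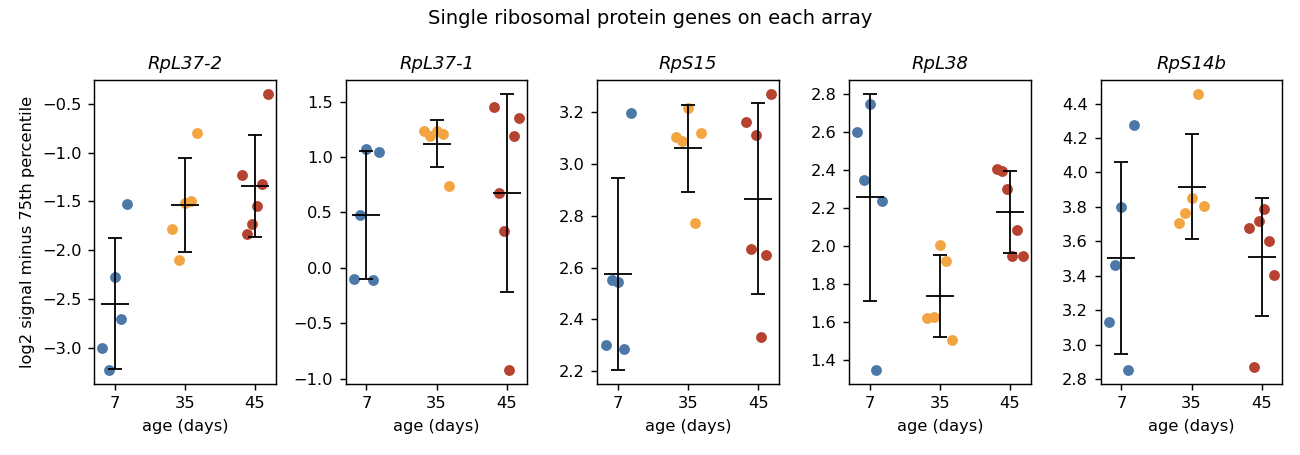
Log2 signal of 5 ribosomal protein genes on each array, over features above background on every array, by age in days. Points are arrays (5, 5 and 6 at 7, 35 and 45 days), and the black bars are the mean and SD. RpL37-2 lay below all older arrays on 4 of 5 arrays at 7 days, most 35-day values of RpL37-1 and RpS15 lay above most 7-day values, and no pair of ages was without overlap.

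Features of 1 gene mostly gave similar changes. Among the 44 members with at least 2 features above background on every array, the median distance between the highest and the lowest feature change was 0.11 at 35 against 7 days, 0.17 at 45 against 7 days and 0.15 at 45 against 35 days. The widest distances were 0.79 for RpL38 at 35 against 7 days and again at 45 against 35 days, and 1.02 for RpL21 at 45 against 7 days, where 1 of 3 features, not named by a FlyBase transcript, had a log2 change of -1.01.

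The next question was whether the genes moved as a group. The set level of an array was taken as the median over the 82 members of the log2 signal minus the mean of that gene over the 16 arrays. It was -0.13, 0.15, -0.05, -0.53 and 0.40 on the 7-day arrays. On the 35-day arrays it was -0.05, -0.32, 0.15, 0.50 and -0.09. On the 45-day arrays it was 0.23, -0.29, 0.34, -0.03, -0.26 and 0.08. The 3 ages overlapped, and their means of -0.03 ± 0.35, 0.04 ± 0.31 and 0.01 ± 0.25 (SD, n = 5, 5 and 6) differed by less than the spread between arrays of 1 age. The set level of the 45-day arrays averaged -0.02 in slide row 1 and 0.04 in slide row 2.

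Scaling each array by its median intensity instead gave set levels of -0.15 ± 0.40, 0.08 ± 0.31 and 0.07 ± 0.63 at 7, 35 and 45 days. Replicate 4 of the 45-day arrays stood apart at 1.23 on this scale and at -0.03 with the 75th percentile, and its array median was the lowest of the 16 (8.52 on the log2 scale). Without it the 45-day mean was -0.16 ± 0.32 (SD, n = 5). The median log2 change of the 82 members with median scaling was 0.24 at 35 against 7 days, 0.22 at 45 against 7 days and 0.01 at 45 against 35 days, where the medians over all genes were 0.16, 0.12 and -0.05. With this scaling 78, 80 and 42 of the 82 members had a positive change, against 52, 50 and 31 with the 75th percentile, and 0 passed the threshold under either. The medians over all genes moved up as well, from 0.00, -0.06 and -0.07 with the 75th percentile. The interval of the change lay within 2-fold for 72, 39 and 74 members with median scaling. The shares of all genes for these counts are not given here, so the counts are not read as a result about the members. Relative to the median of all genes, the members lay higher by 0.07, 0.11 and 0.05. Either scaling subtracts 1 value per array from all genes, so this distance is the same under both by construction. The number of positive changes thus depended on the scaling, as did the medians over all genes. All 6 medians stayed under 0.30, the mean SD of the set level between arrays of 1 age with the 75th percentile. That SD describes single arrays and does not measure the uncertainty of a change between ages.

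**Figure D5:**
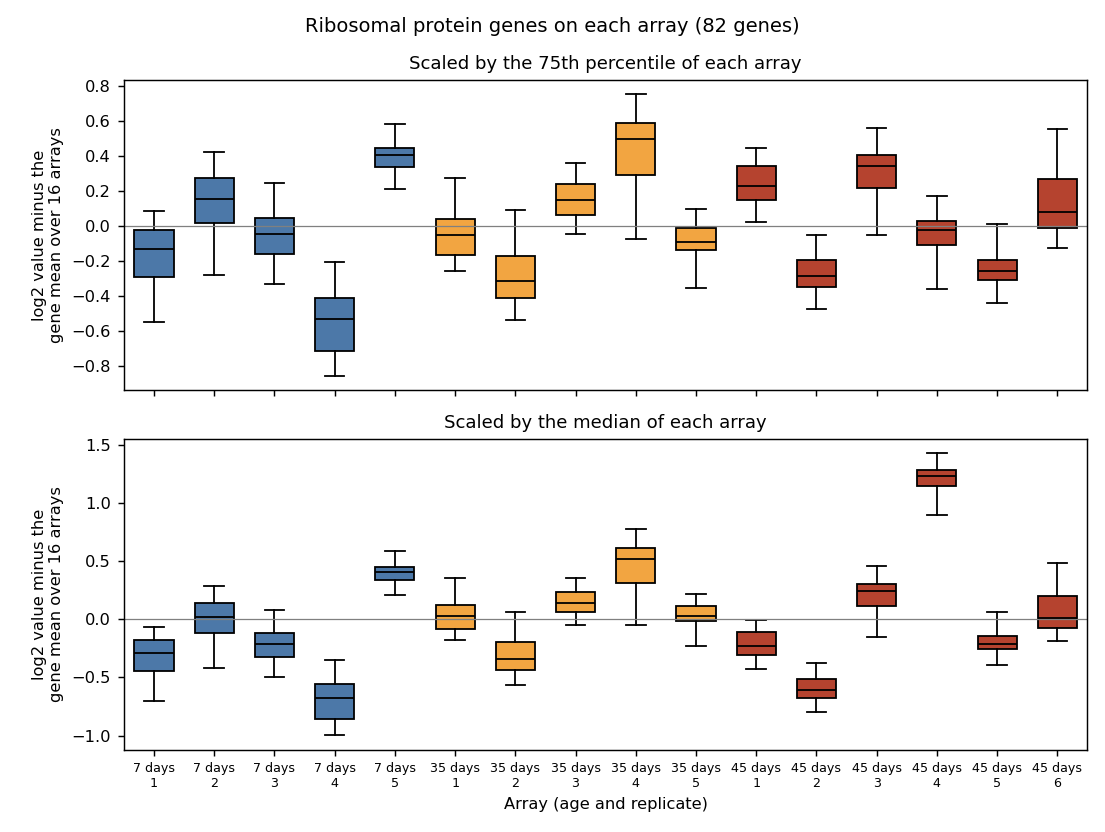
Log2 signal of the 82 ribosomal protein genes on each array, each gene minus its mean over the 16 arrays, scaled by the 75th percentile (top) and by the median (bottom). Boxes give the median and quartiles over genes, whiskers the 5th and 95th percentiles, and colors the ages of 7, 35 and 45 days. Within 1 array the genes lie close together, the ages overlap, and replicate 4 of the 45-day arrays stands apart only with median scaling.

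The members deviated together from array to array. For each gene the mean of its age was subtracted, and the deviations of pairs of genes were correlated over the 16 arrays (81 members with a value on every array). The median correlation between 2 members was 0.82 with the 75th percentile and 0.92 with median scaling. It was 0.17 and 0.61 among 64 mitochondrial ribosomal protein genes, 0.09 and 0.46 among 32 proteasome genes, 0.05 and 0.62 among 33 initiation factor genes and 0.01 and 0.33 among all genes. These are descriptions over 16 arrays whose genes share the library and the scaling of each array, and no test was made. The small subunit had a median correlation of 0.86 and the large subunit of 0.77 with the 75th percentile.

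The median SD of a member within an age was 0.33. It was 0.12 after the median deviation of the 81 members on each array had been subtracted. For mitochondrial ribosomal protein genes the same step, with their own median, left 0.31 of 0.35, and for proteasome genes 0.38 of 0.38. With the 75th percentile, 73 of the 81 members had a correlation above 0.5 with this median deviation, which includes the gene itself. The other 8 were RpL3, RpL7A, RpL37-1, RpLP0, RpL37-2, RpS15, RpL38 and RpS28a, of which RpL3 had the lowest at 0.04, and with median scaling all but RpL37-1 and RpL7A were above 0.5. RpL37-2, RpL37-1, RpS15 and RpL38, described above, are thus among the members that followed the group least. All 8 had a lower log2 signal than most members, and the part of low signal in these correlations was not tested. In each age the array with the highest 75th percentile had the lowest set level, which was replicate 4 at 7 days (log2 percentile 13.88, set level -0.53), replicate 2 at 35 days (14.08 and -0.32) and replicate 2 at 45 days (13.77 and -0.29). Both numbers hold the same percentile, and the part of scaling in the shared deviations was not tested. Without any scaling the set level spanned 0.81 over the 16 arrays, against 1.03 with the 75th percentile, while the log2 percentile itself spanned 1.28. The unscaled set level averaged -0.19 ± 0.20 at 7 days, 0.17 ± 0.14 at 35 days and 0.03 ± 0.12 at 45 days (SD, n = 5, 5 and 6). All 35-day arrays (0.0095 to 0.33) lay above all 7-day arrays (-0.48 to 0.0072) on this scale, unlike under either scaling, and the 45-day arrays overlapped both. Unscaled values also hold the overall brightness of each array, and slide row and age cannot be told apart here.

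The genes around the ribosome were counted in the same fits. Over all features, 0 genes passed in any pair of ages among 5 ribosome partners (such as Rack1, which sits on the small subunit, and sta, which encodes its protein SA), 7 elongation factor genes, 42 initiation factor genes, 25 ribosome biogenesis genes, 12 regulators of ribosome production, 66 mitochondrial ribosomal protein genes and 46 proteasome genes. Rack1 had the largest log2 change of the 5 partners, -0.75 ± 0.20 at 35 against 7 days (SE, limma adjusted p = 0.10). It averaged 5 features, of which 4 were above background on every array. Of the 12 regulators, 2 had the lowest p in a pair with 45 days. Myc, a transcription factor that drives ribosome production, changed by 0.64 ± 0.20 at 45 against 7 days (limma adjusted p = 0.39). The regulator crc changed by 0.75 ± 0.20 at 45 against 35 days (limma adjusted p = 0.53). None of these passed. Over features above background on every array, bor, which was listed with ribosome biogenesis but encodes the fly homolog of the mitochondrial membrane ATPase ATAD3A, was lower at 35 than at 7 days by a log2 change of -1.47 ± 0.22 (SE, limma adjusted p = 0.041), and no other gene of these lists passed. The median log2 changes of the 7 elongation factor genes in that fit were 0.04, -0.02 and -0.06 at 35 against 7, 45 against 7 and 45 against 35 days, and those of the 64 mitochondrial ribosomal protein genes -0.02, -0.18 and -0.16.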

How the data were processed

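Per the labels and the methods of the study, the authors labeled amplified RNA of each pool with Cy3, hybridized it to a custom Agilent 8 x 60 K array, and deposited 1 scanner file per array, written by Agilent Feature Extraction 11.5.1.1 with genome build dm3. The deposited intensity is background-adjusted and not normalized between arrays. The authors also deposited a table of log2 values, used here as an alternative. The labels number the pools as separate replicates, and p-values measure the spread between pools.

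Control spots and outlier spots were left out. Log2 intensity minus the 75th percentile of the array was averaged over spots of a feature and over features of a gene. Gene names came from accessions through a Release 6 reference table, used for names only, and from the study's list of array features. For each pair of ages limma 3.58.1 in R 4.3.3 was fitted (lmFit, eBayes) to the arrays of both ages alone, and its F test compared the 3 ages, with Benjamini-Hochberg adjustment over all genes. Single genes were also compared by exact permutation tests, whose smallest p is 0.0079 for 5 against 5 and 0.0043 for 5 against 6 arrays. The fit was tested on simulated data before use.

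Named genes are members past a threshold, the 8 highest and 8 lowest changes against 7 days, paralogs, ubiquitin fusions and stalk genes. RpL38, RpL21, RpL5 and RpL7A were named after their values were seen. The members and lists were chosen with earlier results of these data known. Alternatives covered scaling, background, dim features, slide, slide row, replicate number, test and left-out arrays. Normexp background correction used median signals, since mean signals were not used here. VGlut, nos and Act57B had no matched feature and were not analysed here. Tor and Larp, also planned as regulators, were not matched by name and were not analysed here. The number of arrays limits the precision.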

Additional observations from a re-analysis of the deposited data

Results flagged for a closer look

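Of 27 groups of arrays of single members examined for an array far from the others, 3 stood out, where chance gives about 1 in 20. RpS15 had its lowest 35-day value on replicate 4 (log2 signal 2.77), RpL37-1 had its lowest 35-day value on replicate 5 (0.74), and RpS14b had its highest 35-day value on replicate 4 (4.46). Replicate 4 also had the highest set level of the 35-day arrays.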

How the results depend on the processing

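The counts of 0 members past the threshold, in the pairs and in the F test, were the same under all alternatives run except 1. Without replicate 4 of the 35-day arrays the count was 3 at 35 against 7 days (range 0 to 3 over left-out arrays) and 1 in the F test (0 to 1). The median log2 change of the members moved by less than the spread between arrays in every alternative, between -0.26 and 0.25. Replicate numbers did not pair the arrays (correlations between same-numbered arrays -0.06 to 0.13). With a replicate block the medians were 0.02, -0.01 and -0.00 at 35 against 7, 45 against 7 and 45 against 35 days, with 0 members past the threshold, and no call changed.

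Among single genes, 42 values changed sign, all of genes that did not pass the threshold and had at least 1 feature not above background on every array. The causes were not tested except where dim features were left out. For RpL10Aa, RpS28-like, RpS19b and RpL22-like, which were near background, the values below show only the sign of the fit and measure no fold. At 35 against 7 days, normexp background gave 0.18 for RpL10Aa, 0.16 for RpS28-like, 0.0337 for RpS27, 0.235 for RpS19b and 0.0195 for RpL19, and quantile normalization 0.00367 for RpS19b and 0.0724 for RpL19. Without dim features, or with the brightest feature, the change of RpS27 was 0.34 and that of RpL3 0.16 or 0.34. At 45 against 7 days the change was 0.0470 (quantile) and 0.0610 (normexp) for RpL10Aa, 0.0910 (quantile) for RpL19, and without dim features 0.42 for RpS27, 0.0164 for RpL7 and 0.0702 for RpL13A. RpS27 had the same values over features named by a FlyBase transcript. With slide row as a term, or within the shared row, the change was 0.37 for RpL10Aa, 0.58 for RpS5b and 0.0282 for RpS23 at 45 against 7 days. At 35 against 7 days, the row term over all 16 arrays, chosen after seeing the data, gave 0.34 for RpL10Aa, 1.26 for RpS28-like and -0.38 for RpLP1. Left-out arrays turned RpLP1 (range -0.22 to 0.73) and RpL22-like (-0.78 to 1.00) at 35 against 7 days, and RpS5b (-1.45 to 0.18) and RpS23 (-0.90 to 0.0052) at 45 against 7 days.

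The FlyBase-transcript, within-slide and above-background repeats were also chosen after seeing the data. Features named only by their own accession left too few member features and were not run. Between 35 and 7 days no fit of those arrays alone can hold slide row. Members near background have no measured fold.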
